A study of Mus musculus with 27 samples.

Results

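The net change of gene expression in the AKR/J fetal brain between gestational day (d) 12 and d17 was measured over all genes of the read-count table, in the 3 AKR/J libraries of d12 against the 3 AKR/J libraries of d17. These are 6 of the 27 libraries of the series, which covers 3 strains on d12, d15 and d17 with 3 libraries in each group. The table lists 55416 genes, of which 20030 had enough reads to be tested. AKR/J is an inbred strain. The comparison strains are the inbred C57BL/6J and Cav1-null, a congenic line that lacks Cav1 on the C57BL/6J background. In each library the RNA came from the whole brain of a fetus that the labels call female, from timed matings in which the plug marked the first day of pregnancy, and no treatment was given. The labels name the fetuses but not their litters, so the p-values measure the spread between these libraries. A whole brain holds many cell types, and fewer cells of a type cannot be told apart from less RNA per cell.

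In the mouse, this stretch of gestation takes the brain from a wall of dividing neural stem cells, the radial glia, to a tissue of young neurons that grow axons and form first synapses. Progenitors keep dividing under Notch signalling, leave the cycle through proneural transcription factors, and produce neurons first and astrocytes and oligodendrocyte precursors later. Blood formation changes over the same days, from primitive red cells of the yolk sac with embryonic globins to red cells of the fetal liver with adult globins.

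Depth in the 6 libraries ran from 26363697 to 35743241 reads on genes. Levels are given in CPM, library-size-adjusted counts scaled by TMM over all 27 libraries, and net changes as log2 fold change of d17 over d12 ± standard error from edgeR on the 6 libraries. Several libraries stood apart. The correlation of log2(CPM + 1) was 0.96 to 0.978 between d12 libraries and 0.993 to 0.995 between d17 libraries, against 0.87 to 0.921 across the days. Cytosolic ribosomal protein genes took 17.7% and 14.9% of the reads of d12 replicates 1 and 3, 7.48% in d12 replicate 2, 3.64% to 4.56% on d17 and 1.75% to 5.08% in the other strains. The d12 replicate 1, labelled female, held Ddx3y at 17.7 CPM and Uty at 10.48 CPM, genes of the Y chromosome, beside Xist at 2774 CPM, while the other AKR/J d12 libraries were at or under 0.136 CPM for both genes. In the comparison group Cav1-null, d12 replicate 2, also labelled female, had Uty at 64.5 CPM and Xist at 3.80 CPM. On d15, replicate 3 had Xist at 3.38 CPM and no read of Ddx3y or Uty, and replicate 2 was high in muscle, cartilage and skin markers. The part of these features in the results was not tested.

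Of the 20030 genes tested, 9165 (45.8%) were differentially expressed between d12 and d17 at an adjusted p under 0.05, with 4619 (23.1%) higher and 4546 (22.7%) lower on d17. A change of over 2-fold passed the test in 3513 genes (17.5%), 1899 of them higher (9.48%) and 1614 lower (8.06%). Without d12 replicate 1, the library with reads from the Y chromosome, 8081 genes were called. The lower calls moved when single libraries were left out, from 2923 without d17 replicate 2 to 6017 without d12 replicate 2, and those over 2-fold from 893 without d17 replicate 3 to 2637 without d12 replicate 2. The 3513 genes over 2-fold became 2233 without d17 replicate 3. When libraries were scaled by their sizes alone, 7358 genes were called and the share of higher calls moved from 50.4% to 67.2%, with the median over all genes at 0.35 in place of -0.01. Libraries of the days did not overlap in 11676 genes (58.3%), and 9023 genes were both called and free of overlap. Protein-coding genes were called in 50.6% and long noncoding RNAs in 32.9% of those tested.

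The 10 largest rises among well-expressed genes were led by a pair of long noncoding RNAs and by genes of neuronal signalling. C230057M02Rik, a noncoding RNA on chromosome 8 (GRCm39, 123451683 to 123479361), was at 0, 0.068 and 0 CPM on d12 and at 17.1, 23.3 and 21.8 CPM on d17. With 2 reads on d12 in all, its d17 level was 755 times the d12 level, with a counting interval of 209 to 6230. B230209E15Rik, the other noncoding RNA, lies on chromosome 7 from 61179591 to 61265226 and went from 0.0825, 0 and 0.311 CPM to 23.6, 34.2 and 30.4 CPM (8.02 ± 0.59, edgeR adjusted p = 3.98e-05). In both genes every d17 library was above every d12 library.

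Grm5 encodes the metabotropic glutamate receptor mGluR5 and lies on chromosome 7 from 87233376 to 87784594. It was at 0.908, 0.68 and 0.725 CPM on d12, at 41.3, 34.4 and 46.7 CPM on d15 and at 119, 128 and 144 CPM on d17. The 3 days did not overlap, and the net change was 7.43 ± 0.21 (edgeR adjusted p = 4.64e-06), the smallest standard error among the 10 rises. Plppr4, a phospholipid phosphatase-related protein of glutamatergic synapses, moved from between 0.867 and 1.09 CPM to between 44.9 and 58.6 CPM (5.80 ± 0.22, edgeR adjusted p = 7.26e-06). Rasgrf1 and Rasgrf2, which activate Ras downstream of calcium, rose by 6.33 ± 0.35 and 6.00 ± 0.49. The other rises of this group were Ptgds, the prostaglandin D2 synthase of the meninges and choroid plexus, at 6.49 ± 0.63, the proline transporter gene Slc6a7 at 6.20 ± 0.88, the phosphatase subunit gene Ppp2r2c at 5.91 ± 0.50 and Unc13c, a vesicle priming factor, at 5.89 ± 0.63. The 10 were chosen among genes whose d12 and d17 libraries do not overlap, and every d15 library lay between those of d12 and d17 in each.

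The 10 largest falls were mostly genes of blood, uterus and placenta. They comprised the globin genes Hbb-bh1, Hbb-y, Hbb-bh0 and Hba-x, the granzyme genes Gzmc, Gzmd and Gzmg of cytotoxic lymphocytes, the decidual prolactin gene Prl8a2, the endogenous retroviral gene Erv3 and Gabrp. Gabrp, the pi subunit of GABA-A receptors on chromosome 11 (33500774 to 33528983), was at 44.5, 33.2 and 20.1 CPM on d12 and had no read on d17, which makes its level at least 324-fold lower on d17 against a floor of 3 reads per library. Erv3 was at 151, 38.1 and 12.7 CPM on d12 and had 2 reads in all on d17. In Erv3, Prl8a2 and the 3 granzyme genes, d12 replicate 1 was the highest library by far, as in Gzmd with 147, 3.47 and 1.66 CPM. Calls of Gzmd and Gzmc were lost when single d17 libraries were left out, and granzyme and prolactin genes are families of near copies between which reads can be split.

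**Figure D1:**
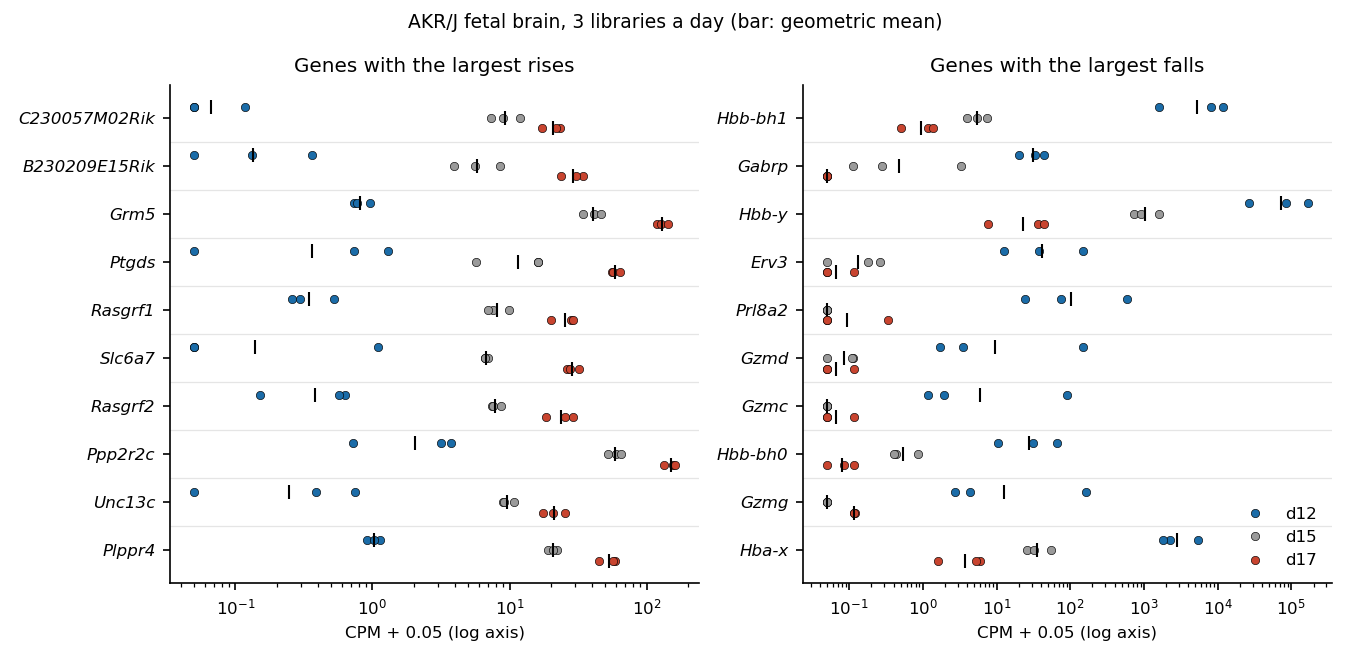
Level of the 10 genes with the largest rises (left) and the 10 with the largest falls (right) in the AKR/J fetal brain, in CPM + 0.05 on a log axis. All averaged at least 3 in log2 CPM. Each point is 1 of 3 libraries of d12, d15 or d17 and each bar the geometric mean, and genes were chosen among those whose d12 and d17 libraries do not overlap, with Grm5 at 0.68 to 0.908 CPM on d12 and 119 to 144 CPM on d17.

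Cell cycle genes fell. All 46 cell cycle genes tested were lower on d17, where 22.7% of all genes were, and 45 of them passed the test for a change of over 2-fold. The median of the list was -2.30, with members between -3.33 and -0.94, and it stayed between -2.40 and -2.17 when any library was left out. Birc5, the survivin of the chromosomal passenger complex, was at 196, 115 and 169 CPM on d12 and at 17.4, 15.0 and 13.9 CPM on d17 (-3.33 ± 0.23, edgeR adjusted p = 3.38e-05). Ube2c, the ubiquitin conjugating enzyme of mitotic exit, was at 251, 109 and 187 CPM on d12 and at 24.3, 19.98 and 19.9 CPM on d17. Gins2, part of the replicative helicase, was at 71.1, 38.7 and 67.6 CPM on d12 and at 7.95, 6.33 and 6.86 CPM on d17. In each of these genes d12 replicate 2 was the lowest d12 library and still above every d17 library. The net changes were -3.05 ± 0.31 in Ube2c and -3.03 ± 0.26 in Gins2.

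Since the cell cycle genes moved together, the bases before their starts were searched for letters known from promoters of this class. The windows of 150 bases shown end before the first annotated exon. They are given 5′ to 3′ on the strand of the gene, and capitals mark CCAAT read on either strand.
Ube2c (GRCm39 chr2:164611618-164611767, plus strand): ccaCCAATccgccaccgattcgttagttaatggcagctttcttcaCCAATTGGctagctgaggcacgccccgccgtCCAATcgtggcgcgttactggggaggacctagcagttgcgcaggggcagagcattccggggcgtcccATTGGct
Gins2 (GRCm39 chr8:121316044-121316193, minus strand): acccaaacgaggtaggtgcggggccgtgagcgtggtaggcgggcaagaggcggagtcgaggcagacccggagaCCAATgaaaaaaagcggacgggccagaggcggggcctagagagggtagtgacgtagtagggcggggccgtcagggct
The window of Ube2c held 5 such matches, 2 of which overlap, and that of Gins2 held 1. CCAAT on either strand was present in 22 of the 46 windows of the list (47.8%) and in 27.4% of 15263 windows of this length before tested protein-coding genes. These shares are over windows directly before the start of the canonical transcript, and the window shown for Ube2c lies 50 bases further upstream. TTTGAA, the core of the cell cycle genes homology region, was in 7 of the 46 (15.2%) and in 6.24% of all windows, and in neither window printed. A match describes the letters and not a site in use.

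Of 21 genes of radial glia and neural stem cells tested, 18 were lower and 1 was higher on d17, with a median of -1.80. Hmga2, a chromatin protein of young stem cells, was at 152, 82.8 and 65.9 CPM on d12, at 13.1, 24.1 and 21.6 CPM on d15 and at 4.35, 3.20 and 6.67 CPM on d17 (-4.36 ± 0.41, edgeR adjusted p = 0.000104). Hes5, the Notch effector of radial glia, moved from 64.2, 59.1 and 94.2 CPM to 6.90, 8.21 and 8.76 CPM, and Sox3 from between 20.3 and 30.4 CPM to between 1.93 and 4.91 CPM. In these genes d12 and d17 did not overlap. Sox2 and Pax6, transcription factors of the same cells, changed less, by -1.23 ± 0.21 and -1.16 ± 0.21. The call of Pax6 was lost with library sizes alone, where its change was -0.83 (edgeR adjusted p = 0.087).

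Proneural factors and genes of intermediate progenitors were lower in 12 and higher in 2 of 18 members, with a median of -1.37. Neurog1 was at 9.32, 16.3 and 18.3 CPM on d12 and at or under 0.85 CPM on d17 (-4.85 ± 0.54, edgeR adjusted p = 0.000243). Neurod4 and the growth arrest gene Gadd45g fell by 2.50 and 2.49 on the log2 scale. Eomes, the marker of intermediate progenitors of the cortex, did not pass the test (0.46, edgeR adjusted p = 0.71), and it was named after its value was seen.

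Regulators of developmental timing, which keep early stem cells in their early state, were lower in 11 of 12 members tested, with a median of -1.29. Lin28a, which blocks the maturation of let-7 microRNAs, was at 7.06, 8.97 and 7.56 CPM on d12, between 0.361 and 1.34 CPM on d15 and at 0.491, 0.427 and 0.686 CPM on d17. Thus d15 and d17 libraries overlapped and both were below d12, and the net change was -3.82 ± 0.32 (edgeR adjusted p = 6.56e-05). Its paralog Lin28b was at 67.7 to 80.8 CPM on d12 and 51.9 to 54.4 CPM on d17 (-0.46 ± 0.14, edgeR adjusted p = 0.0248), a call that was lost with library sizes alone (-0.06, edgeR adjusted p = 0.823) and without any 1 library other than d12 replicate 2. Sall4 and Trim71, an embryonic zinc finger factor and a let-7 target, fell by 4.87 and 4.05 on the log2 scale.

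**Figure D2:**
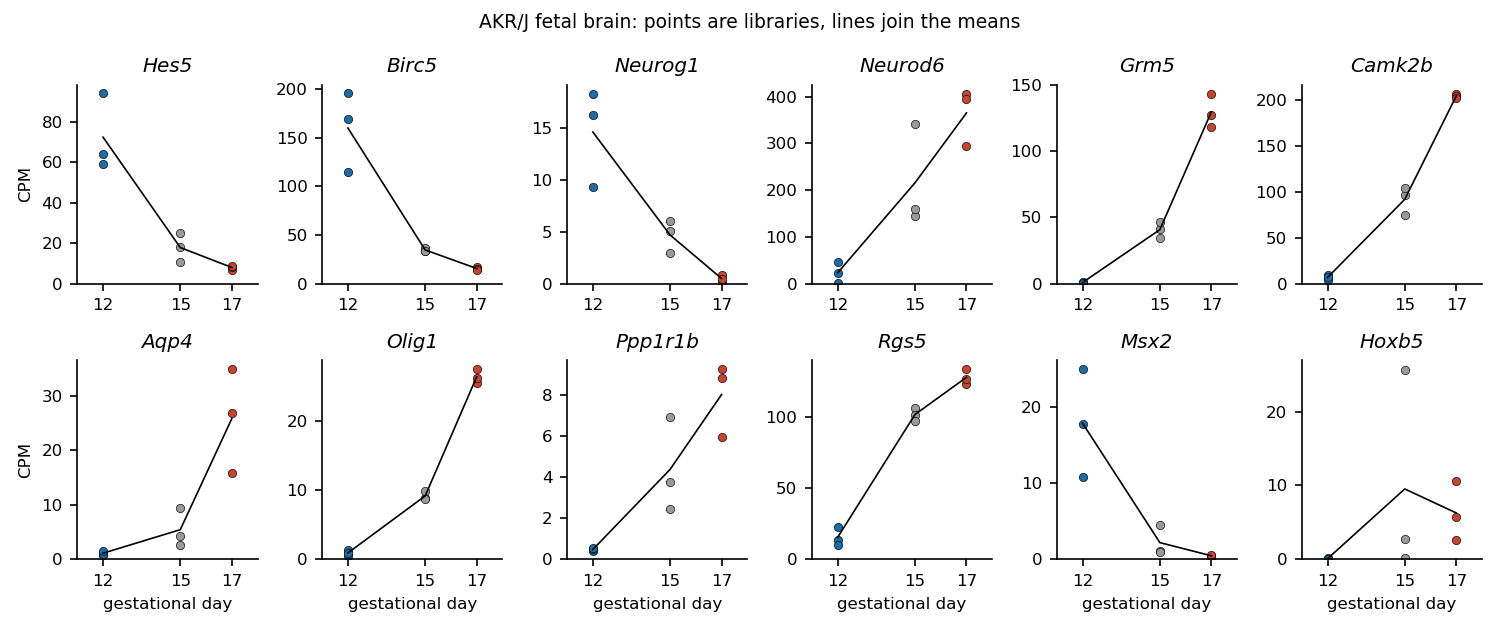
Level in CPM of 12 named genes by gestational day in the AKR/J fetal brain, with points for the 3 libraries of each day and lines through the means. Hes5, Birc5, Neurog1 and Msx2 fell, the neuronal and glial genes rose, and Hoxb5 ranged from 2.55 to 10.6 CPM on d17 and up to 25.7 CPM in 1 library of d15.

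Genes of excitatory transmission rose together. Of 25 glutamate receptor genes tested, 21 were higher and none lower on d17 against 23.1% of all genes higher, with a median of 2.39. Grin2b, the NMDA receptor subunit of the fetal brain, was at 3.88, 11.1 and 5.59 CPM on d12 and at 156, 159 and 137 CPM on d17 (4.49 ± 0.37, edgeR adjusted p = 5.77e-05). Gria1, an AMPA receptor subunit, moved from 8.54, 11.1 and 6.06 CPM to 134, 147 and 136 CPM, and Grin1, the obligatory NMDA receptor subunit, from between 1.40 and 3.68 CPM to between 38.9 and 44.7 CPM. No d12 library overlapped a d17 library in these genes.

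For inhibition, 13 of 16 GABA-A receptor and chloride transporter genes were higher and 1 was lower on d17, with a median of 2.48. Gabrp, the pi subunit gene named above for its fall, was not in this list. Gabra5 was at 2.77, 0.85 and 2.64 CPM on d12 and at 43.0, 51.9 and 57.8 CPM on d17 (4.67 ± 0.41), Gabrb1 went from between 3.91 and 5.75 CPM to between 72.7 and 91.5 CPM (4.23 ± 0.21), and Gabrg3 rose by 4.4 ± 0.40. The transporters that set the chloride gradient, and with it the sign of the GABA response, differed. Slc12a5, the exporter KCC2, was at 24.4, 35.1 and 25.4 CPM on d12 and at 112, 109.6 and 118 CPM on d17 (2.04 ± 0.17, edgeR adjusted p = 6.88e-05). Slc12a2, the importer NKCC1, was at 125, 137 and 92.4 CPM on d12 and at 91.3, 87.2 and 84.3 CPM on d17 and did not pass the test (-0.39 ± 0.17, edgeR adjusted p = 0.102). It passed without d12 replicate 3 (-0.53) and when the trend with transcript length and GC content was removed (-0.76).

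The machinery of synapses and excitability made up the broadest rise. Of 40 genes of synaptic vesicles and the postsynaptic density, 36 were higher and none was lower (median 1.89), and of 36 voltage-gated channel genes, 34 were higher and none was lower (median 2.02). Camk2b, a kinase of the postsynaptic density, was at 3.63, 9.08 and 6.89 CPM on d12, between 74.7 and 104 CPM on d15 and at 206, 204 and 202 CPM on d17 (5.01 ± 0.32, edgeR adjusted p = 2.83e-05). Dlg2, which scaffolds glutamate receptors, moved from between 6.73 and 8.74 CPM to between 178 and 189 CPM (4.62 ± 0.17), and the complexin gene Cplx1 rose by 3.79 ± 0.28. Among channels, Cacng3, an auxiliary subunit of AMPA receptors, rose by 4.76 ± 0.37, and the calcium channel genes Cacna1e and Cacna1d by 3.597 ± 0.35 and 3.49 ± 0.28. The median transcript length of these lists was 5522 and 6796 bases, and long transcripts rose more than short ones in this strain, as shown with the ribosomal protein genes. With that trend removed, 34 and 32 members were called higher, with medians of 1.52 and 1.69.

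Markers of neuron classes rose less evenly. In the cortical projection neuron list 13 of 24 members were higher and 2 lower (median 0.98). In the GABAergic and striatal list 15 of 28 were higher and 1 lower (median 0.92). Over all genes tested, 23.1% were higher and 22.7% lower. Neurod6 and Neurod2, factors of cortical neurons, differed widely within d12. Neurod6 was at 45.6, 23.0 and 0.518 CPM on d12 against 406, 395 and 294 CPM on d17 (4.01 ± 1.05, edgeR adjusted p = 0.0142), and Neurod2 was at 13.4, 20.4 and 0.621 CPM against 199, 171 and 135 CPM (3.90 ± 0.85, edgeR adjusted p = 0.00633). In both, d12 replicate 3 was the lowest library and the days did not overlap. Among the striatal members, Ppp1r1b, which encodes DARPP-32, was at 0.371, 0.51 and 0.518 CPM on d12 and at 8.86, 9.28 and 5.98 CPM on d17 without overlap (4.14 ± 0.34), and the dopamine receptor gene Drd2 rose by 3.58 ± 0.42.

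Transcription factors that mark brain regions moved in both directions. Of 13 forebrain factors tested, 6 were lower and none higher (median -0.53), where 22.7% of all genes were lower and 23.1% higher. Without any 1 of the d17 libraries, 3 forebrain factors were lower. Otx1 and Barhl2 fell by 2.18 and 2.33 on the log2 scale without overlap, whereas Fezf1, at 34.4, 18.8 and 3.00 CPM on d12 and 5.005, 3.84 and 2.52 CPM on d17, was called with overlapping libraries (-2.28 ± 0.71, edgeR adjusted p = 0.0298) and lost its call with library sizes alone, without d12 replicate 1 and without any 1 of the d17 libraries. Among 16 midbrain and hindbrain factors, 9 were lower and 2 higher (median -1.31). Wnt1 of the midbrain-hindbrain border fell from 1.07, 3.40 and 2.33 CPM to between 0.098 and 0.107 CPM (-4.39 ± 0.61), Foxa2 of the floor plate from 8.01, 2.11 and 14.7 CPM to between 0.427 and 0.949 CPM (-3.51 ± 0.69), and Pax2 rose (3.84 ± 0.76). With d12 replicate 2 as the lone d12 library, 6 of these factors were lower and 6 higher, with a median of -0.26. Without d17 replicate 1 or 2, 5 were lower, and without d12 replicate 3, 6 were lower and 4 higher.

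Hox genes, which mark hindbrain and spinal cord levels, were higher in 9 of 13 members tested of 24 listed, and none of those tested was lower. All 13 had the higher mean on d17, and the filter on low counts keeps such members through d17. Hoxc8 and Hoxd9, which did not pass it and are named after their values were seen, had d12 means of 1.39 and 1.34 CPM and no read on d17. Without d12 replicate 2, 17 members were tested, 9 higher and 1 lower. Hoxa5 was at 0.743, 0.272 and 0.207 CPM on d12, at 0.0637, 5.57 and 43.2 CPM on d15 and at 3.96, 9.99 and 24.99 CPM on d17 (5.02 ± 0.80, edgeR adjusted p = 0.00138). The spread within d15 was thus larger than the step from d12 to d17. Hoxd3 rose by 5.27 ± 1.024, and Hoxb5, with 3 reads on d12, was 153 times as high on d17, with a counting interval of 52 to 743. Without d17 replicate 3, the highest d17 library, 6 Hox genes were called higher. The summed level of the 24 genes was 19.5, 3.20 and 3.42 CPM on d12, 13.3, 41.2 and 231 CPM on d15 and 23.3, 46.8 and 116 CPM on d17. How much cord or caudal hindbrain each dissection held is not given in the labels, and its part in these changes was not tested.

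In the astrocyte and oligodendrocyte lists more genes rose than fell. Of 25 astrocyte genes, 18 were higher and 4 lower (median 1.70), where 23.1% of all genes were higher and 22.7% lower. The 4 lower ones also passed the test for a change of over 2-fold, with the lowest member at -2.24. The list summed to 909 to 1002 CPM on d12, 1431 to 1677 CPM on d15 and 1569 to 1704 CPM on d17. Of 19 genes of the oligodendrocyte lineage, 10 were higher and 2 lower (median 1.24), or 4 lower without d12 replicate 2. Aqp4, the water channel of astrocyte endfeet, was at 0.825, 0.85 and 1.55 CPM on d12, at 2.52, 9.39 and 4.29 CPM on d15 and at 15.7, 26.8 and 34.8 CPM on d17 (4.65 ± 0.40, edgeR adjusted p = 6.89e-05). Gfap, the intermediate filament of mature astrocytes, was still low on d17 at 1.70, 4.62 and 6.21 CPM against 0.104 to 0.743 CPM on d12 (3.24 ± 0.70, edgeR adjusted p = 0.0059). Hepacam and Ntsr2 rose from 0 to 0.544 CPM and from 0 to 0.068 CPM to between 10.04 and 15 CPM and between 1.11 and 4.44 CPM. Gfap on d15, at 0.361 to 0.701 CPM, overlapped d12, while Aqp4, Hepacam and Ntsr2 on d15 were already above every d12 library.

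In the oligodendrocyte lineage, Olig1 was at 1.36, 0.476 and 0.829 CPM on d12, at 8.79, 8.67 and 9.90 CPM on d15 and at 25.5, 27.4 and 26.1 CPM on d17 (4.93 ± 0.35, edgeR adjusted p = 3.52e-05). Lhfpl3 and Gpr17, genes of the precursors, rose by 3.32 ± 0.21 and 3.03 ± 0.52. Mbp, the myelin basic protein gene, went from between 7.55 and 16.7 CPM to between 22.4 and 24.7 CPM (1.05 ± 0.27, edgeR adjusted p = 0.0134), a call that was lost without d17 replicate 3. The members that fell were Nkx6-2, at -2.34 ± 0.48, and Myrf, at -1.49 ± 0.29.

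Microglia and vessel lists had calls in both directions, at shares near the 23.1% higher and 22.7% lower of all genes. Of 20 microglia genes, 4 were higher and 4 lower (median -0.04), and of 25 genes of endothelium and pericytes, 6 were higher and 6 lower (median -0.06). Both medians turned positive with library sizes alone, to 0.38 and 0.32, and without d12 replicate 3 or d17 replicate 2, and the counts of calls moved with single libraries. Microglia genes called higher were 1 to 5 and called lower 1 to 7 when single libraries were left out, and endothelium genes called lower were 3 without d17 replicate 2 and 9 without d12 replicate 2. Members of the microglia list lay between -2.66 and 1.20. Tmem119, the lowest of them, fell from 17.2, 6.46 and 8.18 CPM to between 1.42 and 1.99 CPM (-2.66 ± 0.42, edgeR adjusted p = 0.00137). At the blood-brain barrier, the organic anion transporter gene Slco1a4 had 2 reads on d12 and was at 4.32, 3.88 and 4.28 CPM on d17, 152 times the d12 level with a counting interval of 41.8 to 1260, Slco1c1, a thyroid hormone transporter gene, went from between 1.16 and 3.16 CPM to between 27.7 and 31.8 CPM (3.99 ± 0.35), the pericyte gene Rgs5 from between 10.03 and 22.3 CPM to between 122.7 and 134 CPM (3.10 ± 0.28) and the tight junction gene Cldn5 rose by 1.16 ± 0.26. The members that fell were led by Slc2a1, the glucose transporter gene, at -2.11 ± 0.23, Emcn at -2.001 ± 0.28 and Cdh5, the cadherin gene of endothelium, at -1.42 ± 0.25.

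In the choroid plexus list, 7 of 16 members were higher and 3 lower (median 0.89), where 23.1% of all genes were higher and 22.7% lower. Ttr, the transthyretin gene that the plexus shares with the yolk sac and liver, was at 175, 42.0 and 14.7 CPM on d12, where its order followed that of the yolk sac genes, and at 509, 464 and 458 CPM on d17 (2.65 ± 0.76, edgeR adjusted p = 0.0204), a call that was lost without d17 replicate 1. Kcne2, a potassium channel subunit of the plexus, was already at its d17 level on d15, with 8.07 to 13.7 CPM on d15 and 9.21 to 13.5 CPM on d17 against 0.33 to 1.04 CPM on d12. Msx1 and Msx2, early factors of the dorsal midline, fell by 3.07 and 5.30 on the log2 scale. Without any 1 of the d17 libraries 3 members were called higher.

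**Figure D3:**
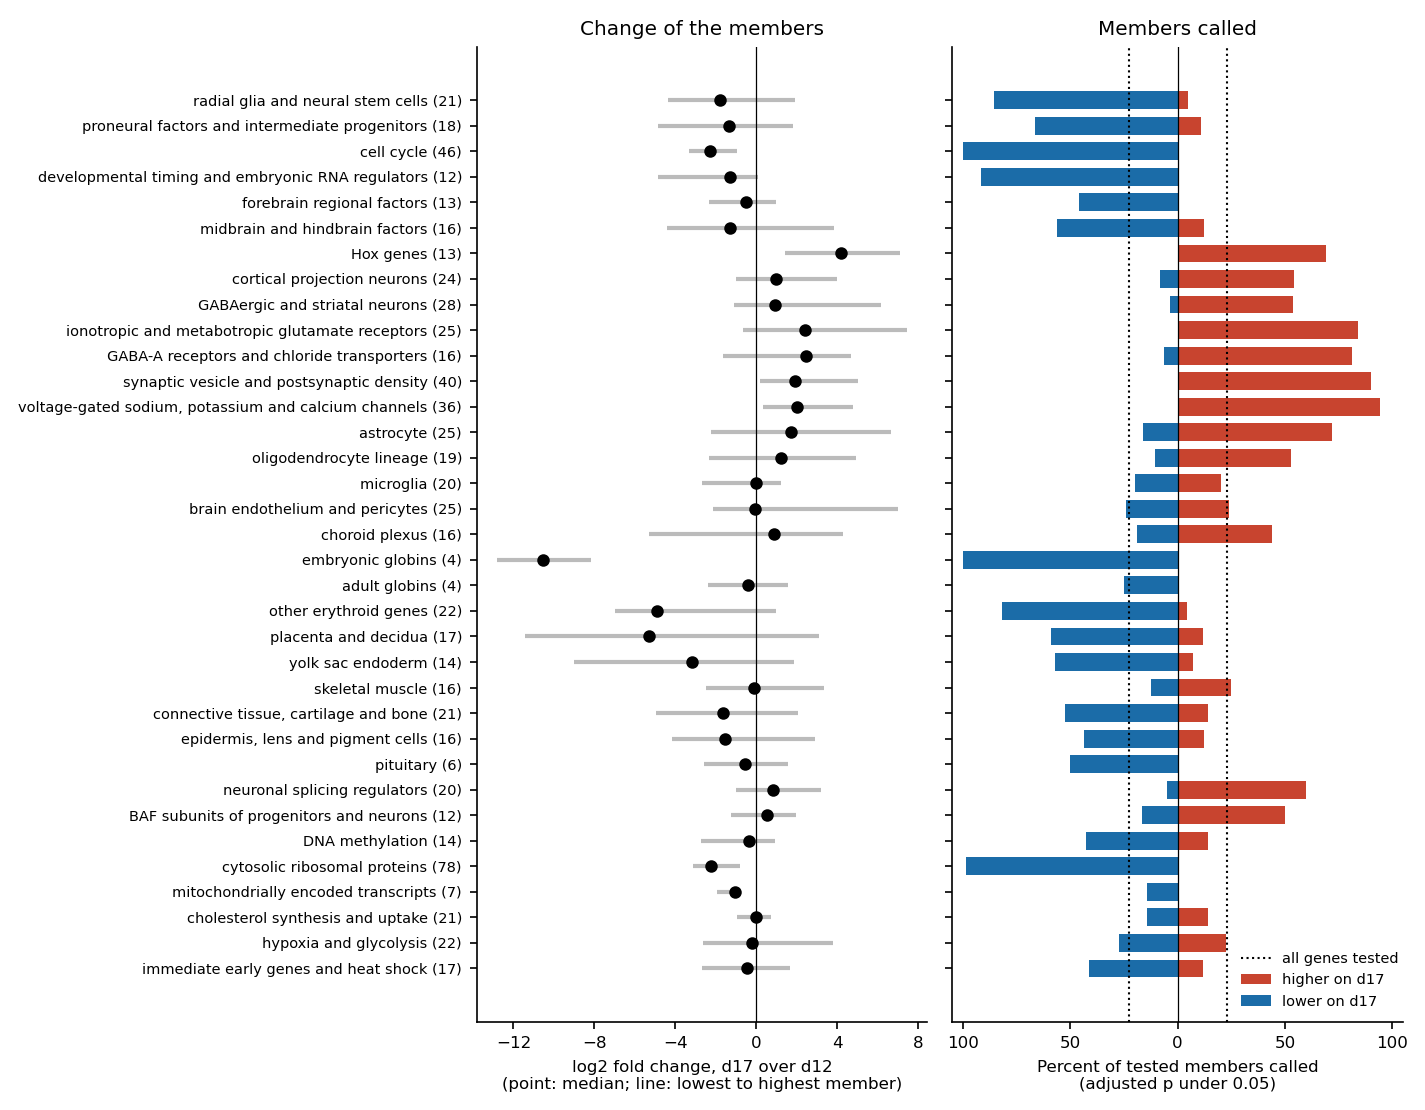
Net change of 35 gene lists in the AKR/J fetal brain, d17 over d12, with the number of members tested in parentheses. The left panel gives the median and range of the log2 fold changes and the right panel the percent of members called higher or lower, with dotted lines at 23.1% and 22.7% for all genes tested, so that cell cycle, ribosomal protein and embryonic globin genes stand at or near 100% lower.

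Red cell genes were among the largest falls. The embryonic globins are carried by the primitive red cells of the yolk sac. Hbb-y was at 84290, 26910 and 168100 CPM on d12, at 740, 902 and 1610 CPM on d15 and at 36.3, 7.68 and 43.9 CPM on d17 (-11.59 ± 1.31, edgeR adjusted p = 0.000264). Hbb-bh1 was at 8150, 1588 and 11690 CPM on d12 and at 1.11, 0.462 and 1.31 CPM on d17 (-12.81 ± 1.07, edgeR adjusted p = 6.15e-05). Hba-x, the zeta globin of the alpha cluster, was at 2270, 1786 and 5443 CPM on d12 and at 5.95, 1.56 and 5.26 CPM on d17 (-9.49 ± 0.79, edgeR adjusted p = 6.12e-05). In each, d12 replicate 3 was the highest library and the 3 days did not overlap. All 4 embryonic globin genes tested were called lower, with a median of -10.54, and together they took 6.42%, 3.14% and 12.5% of the reads of the d12 libraries and at most 0.00535% on d17. In the libraries of the other strains they took at most 0.406%, and whether the AKR/J d12 libraries differ in the blood or tissue they hold was not tested.

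The bases before the starts of these genes are shown because these genes fell together. Capitals mark CCAAT and ATAAA, the letters of the CCAAT and ATA boxes of globin promoters, on either strand.
Hbb-y (GRCm39 chr7:103502424-103502573, minus strand): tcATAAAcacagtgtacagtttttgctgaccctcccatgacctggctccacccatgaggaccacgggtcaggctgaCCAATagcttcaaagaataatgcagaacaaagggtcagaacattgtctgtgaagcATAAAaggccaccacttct
Hbb-bh1 (GRCm39 chr7:103492372-103492521, minus strand): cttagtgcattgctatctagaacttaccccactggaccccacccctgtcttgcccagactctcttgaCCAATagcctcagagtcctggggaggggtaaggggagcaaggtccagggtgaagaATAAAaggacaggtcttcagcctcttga
Hba-x (GRCm39 chr11:32226250-32226399, plus strand): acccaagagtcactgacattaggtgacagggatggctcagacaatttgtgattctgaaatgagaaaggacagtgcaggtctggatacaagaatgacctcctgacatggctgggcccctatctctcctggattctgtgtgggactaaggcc
The window of Hbb-y held CCAAT once and ATAAA 2 times and that of Hbb-bh1 held each once, while neither was found in that of Hba-x. CCAAT was in 27.4% and ATAAA in 15.8% of the 15263 windows of tested protein-coding genes.

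Of 4 adult globin genes tested, 1 was called lower and none higher (median -0.42). Hbb-bs, the adult beta globin gene next to the embryonic ones on chromosome 7, was at 2277, 747 and 4375 CPM on d12, between 672 and 1070 CPM on d15 and at 6109, 2283 and 12980 CPM on d17. Its days overlapped and it did not pass the test (1.58 ± 0.76, edgeR adjusted p = 0.121), and neither did Hbb-bt (0.47 ± 0.73, edgeR adjusted p = 0.63). With library sizes alone Hbb-bs was called higher (2.10). Hba-a2 was called lower (-2.41 ± 0.73, edgeR adjusted p = 0.0256) at 1.60 to 6.21 CPM on d12, a call lost with library sizes alone and without d12 replicate 1 or 3 or d17 replicate 1 or 2, while its near copy Hba-a1 did not pass the test, and the split of reads between copies is uncertain. Of 22 other erythroid genes, 18 were lower and 1 higher (median -4.90). Kel and Ermap, blood group genes, fell from 39.9, 50.2 and 99.3 CPM and from 35.8, 54.1 and 75.6 CPM to under 1 CPM in every d17 library, and Rhag fell by 6.99 on the log2 scale.

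Markers of placenta, decidua and yolk sac were present in the d12 libraries of AKR/J and unequal between them. The summed placenta and decidua list was at 938, 89.8 and 52.5 CPM in d12 replicates 1 to 3 and between 10.8 and 18.7 CPM on d17, and the summed yolk sac list at 2029, 259 and 57.3 CPM and between 32.2 and 38.3 CPM. Of 17 placenta and decidua genes tested of 35 listed, 10 were lower and 2 higher. Of those tested here and in the yolk sac list, most had the higher mean on d12, and the filter on low counts keeps such members through d12, as with Prl7a1 and Rhox6, so these counts do not support a direction of the lists. Prl8a2 was at 587, 74.2 and 24.3 CPM on d12 and had 0, 0.284 and 0 CPM on d17 (-11.21 ± 1.70, edgeR adjusted p = 0.00113). Prl7a1 and Rhox6 had no read on d17, at least 127-fold and 51.7-fold below their d12 means, and at least 15.5-fold and 5.65-fold below their lowest d12 library, with d12 replicate 1 the highest for both. Of 14 yolk sac endoderm genes tested of 25 listed, 8 were lower and 1 higher. Without d12 replicate 3, 20 of 22 tested were lower, and without single d17 libraries 10 to 14 of 22. Afp, the alpha-fetoprotein of yolk sac and liver, was at 1043, 139 and 16.1 CPM on d12 and at 0.327, 1.60 and 0.392 CPM on d17 (-9.0 ± 1.65, edgeR adjusted p = 0.00281), Apob fell by 7.49 on the log2 scale, and Apoa4 had 2 reads on d17, with a d12 level 205 times as high and a counting interval of 56.3 to 1700. Every d12 library was above every d17 library in Prl8a2 and Afp, also in the lowest d12 library.

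**Figure D4:**
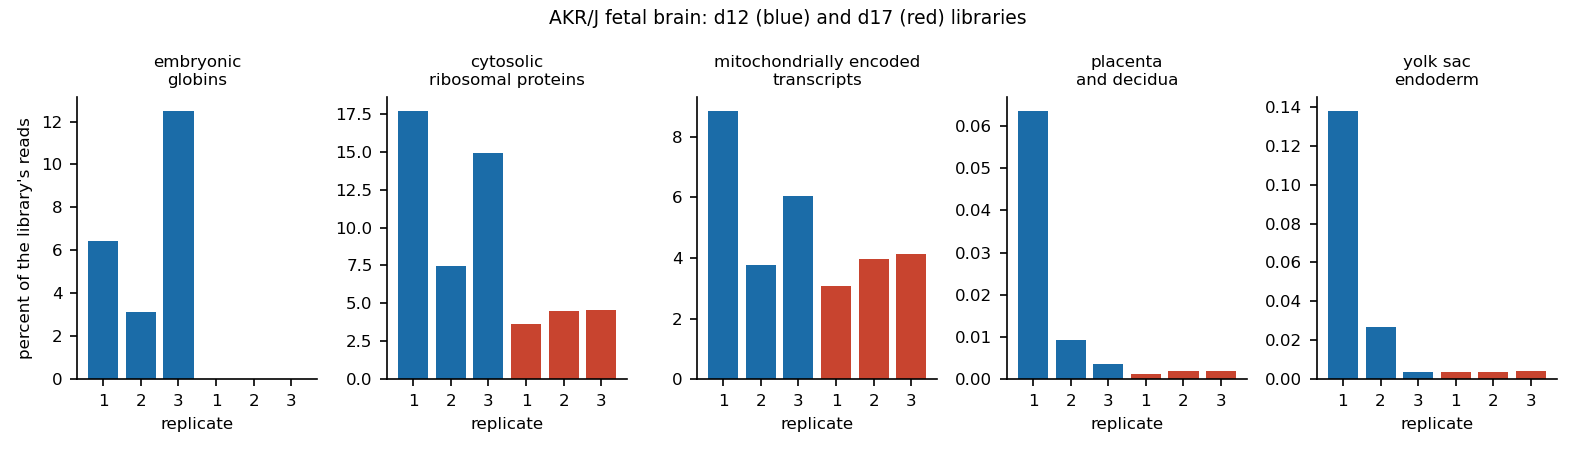
Percent of reads taken by 5 gene lists in the 3 d12 and the 3 d17 libraries of the AKR/J fetal brain. Embryonic globins took 3.14% to 12.5% on d12, ribosomal protein genes 17.7% and 14.9% in d12 replicates 1 and 3, and the placenta and yolk sac lists were highest in d12 replicate 1.

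Tissues next to the brain showed the same direction in part. Of 21 genes of connective tissue, cartilage and bone, 11 were lower and 3 higher (median -1.66, and -0.45 with d12 replicate 2 as the lone d12 library). Twist1, a factor of cranial mesenchyme, was at 50.01, 22.5 and 47.6 CPM on d12, at 3.79, 23.1 and 1.70 CPM on d15 and at 1.505, 1.31 and 0.882 CPM on d17 (-4.98 ± 0.38, edgeR adjusted p = 4.59e-05), and Lum and Prrx2 fell by 4.52 and 4.22. Of 16 genes of epidermis, lens and pigment cells, 7 were lower and 2 higher, among them Grhl2, Trp63 and Sfn, which fell by 4.14, 3.53 and 3.23. In all these genes d15 replicate 2 was the highest d15 library. Of 6 pituitary genes tested, 3 were lower, including Pomc. Of 16 skeletal muscle genes, 4 were higher, near the 23.1% of all genes, and 2 lower, below the 22.7%, and the list median of -0.13 turned positive with library sizes alone and without d12 replicate 1 or d17 replicate 2 or 3. Neb, the nebulin gene, rose by 2.40 ± 0.20 and Mylpf, a myosin light chain gene, was at -2.49 ± 0.62.

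Of 20 neuronal splicing regulators, 12 were higher and 1 was lower (median 0.82), where 23.1% of all genes were higher and 22.7% lower. Ptbp1, the splicing repressor of progenitors, was the lower one, at 115, 118 and 111 CPM on d12 and 65.2, 51.9 and 48.3 CPM on d17 (-1.02 ± 0.15, edgeR adjusted p = 0.00104), though not with library sizes alone (-0.65, edgeR adjusted p = 0.079). Rbfox3, which encodes NeuN, rose by 2.01 ± 0.21, Rbfox1 by 3.18 ± 0.20 and Celf2 and Celf6 by 2.24 ± 0.20 and 2.22 ± 0.19. In the BAF chromatin remodelling complex, 6 of 12 subunits were higher and 2 lower, against the same shares over all genes. Actl6a, the progenitor subunit, was at 68.8, 71.3 and 68.7 CPM on d12 and at 33.1, 27.6 and 23.6 CPM on d17 (-1.27 ± 0.15), and its neuronal counterpart Actl6b was at 27.1, 36.7 and 25.9 CPM and at 111, 109.7 and 115 CPM (1.94 ± 0.17). Ss18l1, the neuronal counterpart of Ss18, rose by 1.498 ± 0.18, and Ss18 was the other subunit that fell (-0.62 ± 0.13).

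Of 14 genes of DNA methylation, 6 were lower and 2 higher (median -0.38), where 22.7% of all genes were lower and 23.1% higher. Uhrf1, which brings the maintenance methyltransferase to replicating DNA, fell from 91.8, 118 and 81.4 CPM to 18.6, 13.05 and 11.6 CPM (-2.71 ± 0.22, edgeR adjusted p = 6e-05). Dnmt1 itself was at 99.5 to 156 CPM on d12 and 86.7 to 103 CPM on d17 and did not pass the test (-0.35 ± 0.19, edgeR adjusted p = 0.174), and Dnmt3b, a de novo methyltransferase, was called lower by a small margin (-0.72 ± 0.25, edgeR adjusted p = 0.0471), a call that was lost with library sizes alone and without any 1 library other than d12 replicate 1. Gadd45a and Gadd45b fell by 1.99 and 2.05. With the trend of length and GC content removed, 11 genes of this list were lower and Dnmt1 was among the called genes.

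Ribosomal protein genes fell as a block. Of 78 genes of cytosolic ribosomal proteins, 77 were lower on d17, with a median of -2.22 and members between -3.14 and -0.78. Rpl35a was at 2038, 483 and 1991 CPM on d12, between 144 and 168 CPM on d15 and at 130.1, 176 and 191 CPM on d17 (-3.14 ± 0.53, edgeR adjusted p = 0.00188). Rpl39 and Rpl32, which fell by 2.87 and 2.86, had the same order, with d12 replicate 2 far below replicates 1 and 3 and still above every d17 library. With d12 replicate 2 as the lone d12 library the median was -0.84 and 70 genes were lower, and with the trend of length and GC content removed it was -1.79. The median net change of the same list was -0.32 in C57BL/6J, with none called, and -0.51 in Cav1-null, with 64 of 78 called lower. In the edgeR test of the difference in net change itself, none of the 78 was called against C57BL/6J, where 0.00917% of all genes were, and 42 were more negative in AKR/J than in Cav1-null, where 3.39% of all genes were. Of 7 mitochondrially encoded transcripts tested, 1, mt-Nd1, was called lower (-1.93 ± 0.57, edgeR adjusted p = 0.0231), while none was without d12 replicate 1 or any 1 of the d17 libraries and 7 were without d12 replicate 2. These transcripts took 3.76% to 8.86% of the reads on d12, 3.06% to 4.14% on d17 and at most 4.10% in the other strains.

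Transcript length went with the net change in this strain. The median log2 fold change was -0.46 in the shortest of 5 equal bins of genes (up to 1397 bases), -0.13, 0.01 and 0.11 in the next ones and 0.26 in the longest (from 5125 bases). Over such bins the medians stayed between -0.04 and 0.01 in C57BL/6J and between -0.12 and 0.05 in Cav1-null. Against the mean of the 3 AKR/J d17 libraries, the median of the shortest bin stood 0.32, 0.20 and 0.30 higher in the 3 AKR/J d12 libraries. The d17 libraries themselves, at -0.03 to 0.02, lie near that mean by construction. The length of the transcripts and the groups of genes overlap here, since ribosomal protein genes are short and channel and receptor genes long, and their parts in the net change cannot be told apart by this design.

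**Figure D5:**
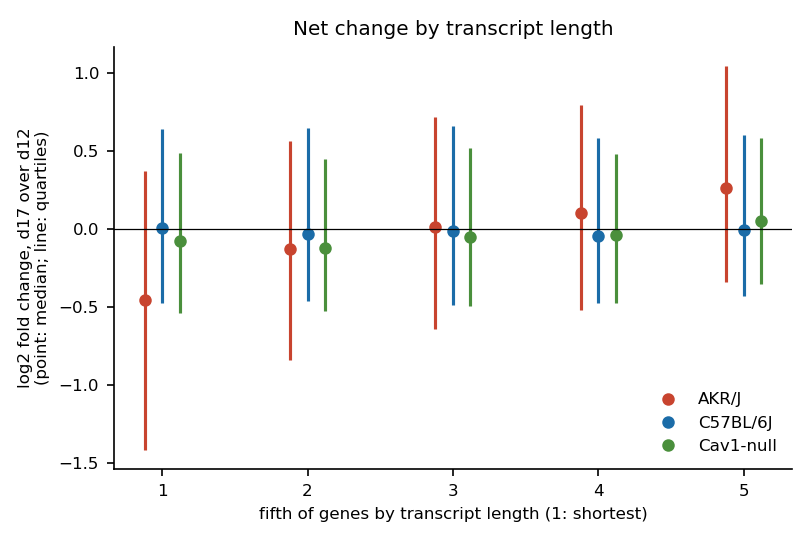
Median (points) and quartiles (lines) of the log2 fold change of d17 over d12 in 5 bins of genes by transcript length, for the 3 strains. In AKR/J the median moves from -0.46 in the shortest to 0.26 in the longest bin, and in the other strains it stays between -0.12 and 0.05.

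Of 22 genes of hypoxia and glycolysis, 5 were higher and 6 lower, near the 23.1% and 22.7% of all genes. Pfkp, the platelet-type phosphofructokinase of neurons, was at 60.2, 138 and 78.1 CPM on d12 and at 1087, 1269 and 1366 CPM on d17 (3.80 ± 0.35, edgeR adjusted p = 9.4e-05), Eno2, the neuronal enolase, rose by 2.23 ± 0.19 and Hk2 fell by 2.65 ± 0.26. Of 21 genes of cholesterol synthesis and uptake, 3 were higher and 3 lower, below the shares over all genes and none by over 2-fold, with Idi1 at -0.94 and Fdft1 at 0.72. The call of Idi1 was lost with library sizes alone and without d17 replicate 1. Of 17 immediate early and heat shock genes, 7 were lower and 2 higher, led by Hspa1b, Atf3 and Hspb1, at -2.68, -2.29 and -1.93. The medians of the hypoxia and cholesterol lists, -0.20 and -0.02, turned positive with library sizes alone, and the count of lower genes in these lists was 3 to 10 and 1 to 6 when single libraries were left out.

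Most of the net change was present by d15. The d15 mean lay between the d12 and d17 means in 80.0% of the 4619 genes that rose and in 76.3% of the 4546 that fell, and the median share of the log2 change reached by d15 was 78.0% and 67.6%. When d15 was tested against the mean of both ends over the 9 AKR/J libraries, 956 of 21070 genes (4.54%) were called, 598 above (2.84%) and 358 below (1.7%). Those above were 62.5% of the calls, and 76.7% with library sizes alone and 47.2% with DESeq2. Of those above, 546 had a net rise, and of those below, 314 had a net fall. C230057M02Rik stood 3.47 ± 0.35 above the mean of the ends, Grm5 1.96 ± 0.14 and the glycine transporter gene Slc6a5 2.12 ± 0.47, whereas the phagocyte oxidase gene Ncf4, Hbb-bh1 and the pseudogene Cyp4b1-ps2 stood 3.91 ± 0.63, 3.96 ± 0.64 and 5.13 ± 0.98 below it. Genes of this contrast were sensitive to single libraries, with 6527 called without d12 replicate 2 and 11 without d15 replicate 3. The calls of C230057M02Rik and Grm5 held without any 1 library, and those of the other 4 did not.

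The net change of AKR/J was compared with that of the other strains by an interaction term. Against C57BL/6J, 2 of 21808 genes were called (0.00917%) with edgeR, 4797 were at an unadjusted p under 0.05, and DESeq2 called 1933. Nr1h5, a nuclear receptor related to the bile acid receptor on chromosome 3 (102846830 to 102871449), was at 54.5, 68.8 and 39.2 CPM in AKR/J on d12 and at 1.37, 0.996 and 2.06 CPM on d17, and at most 1.70 CPM in any C57BL/6J library. The difference in net change was -7.95 ± 0.92 (edgeR adjusted p = 0.01), and the call was lost without some d17 libraries of either strain. Rpl34-ps1, a processed pseudogene of a ribosomal protein whose reads can be shared with other copies, was at 268, 58.3 and 220 CPM on d12 and between 16.2 and 31.3 CPM on d17 in AKR/J and rose in C57BL/6J from under 0.3 CPM to between 4.54 and 9.98 CPM (-7.72 ± 0.83, edgeR adjusted p = 0.00799). Against C57BL/6J the count depended on single libraries, with 3951 genes called without AKR/J d12 replicate 2 and 1363 without C57BL/6J d12 replicate 3.

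Against Cav1-null, 2395 of 21943 genes (10.9%) differed in net change, 1651 with a more positive and 744 with a more negative change in AKR/J. The more positive ones made up 68.9% of the calls, 83.5% with library sizes alone and 54.7% with upper quartile factors. Grm5 rose by 3.76 ± 0.21 more on the log2 scale (edgeR adjusted p = 2.04e-06), Glra2, a glycine receptor subunit gene, by 3.42 ± 0.24, Ablim3, an actin-binding protein gene, by 3.30 ± 0.24 and Hpcal4, a neuronal calcium sensor gene, by 2.78 ± 0.19. In these genes the strains stood apart on d12. Grm5 was at 0.68 to 0.908 CPM in AKR/J on d12 against 13.4 to 16.1 CPM in Cav1-null and 13.8, 18.8 and 2.25 CPM in C57BL/6J, and on d17 at 119 to 144 CPM in AKR/J against 175 to 189 CPM and 151 to 231 CPM. Hpcal4 was at 1.03 to 1.05 CPM in AKR/J on d12 and 8.34 to 10.9 CPM in Cav1-null. Nr1h5 fell in AKR/J and not in Cav1-null, where it was at most 0.572 CPM in every library (-6.79 ± 0.50, edgeR adjusted p = 1.55e-05). These calls held without any 1 library.

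By group, a more positive net change in AKR/J than in Cav1-null was called in 22 of the 40 synaptic genes, 17 of the channel genes, 11 of the glutamate receptor genes and 9 of the splicing regulators, where 7.52% of all genes were. A more negative one was called in 42 of the 78 ribosomal protein genes and 13 of the erythroid genes, where 3.39% of all genes were. The synaptic list had a median of 1.89 in AKR/J against 1.15 for C57BL/6J and 0.93 for Cav1-null. The channel list had 2.02 against 1.25 and 1.08. In the test of the difference from C57BL/6J no member of either list was called, where 0.00917% of all genes were. The cell cycle list had medians of -2.30, -2.47 and -2.41 in the 3 strains, and 1 of its members differed from Cav1-null. In the other strains few placenta and yolk sac genes passed the filter. The placenta list took up to 0.0151% of the reads of their libraries, against 0.0636%, 0.00932% and 0.00355% in AKR/J d12 replicates 1 to 3. For the yolk sac list it was up to 0.00471%, against 0.138%, 0.0268% and 0.00387%. The placenta list had 2 members tested in C57BL/6J and 6 in Cav1-null, with 1 called higher in Cav1-null and none lower, and the yolk sac list had 9 and 11 tested, with 3 and 4 called higher and none and 1 lower. The count against Cav1-null was 907 without Cav1-null d17 replicate 1 and 6452 without AKR/J d12 replicate 2. Without Cav1-null d12 replicate 2, which held reads of Y chromosome genes, it was 1346. With the trend of length and GC content removed, 2116 genes were called, 64.5% of them more positive in AKR/J. Ribosomal protein reads in d12 libraries also moved with these differences, and their part was not tested.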

How the data were processed

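Total RNA was taken from whole fetal brains and polyadenylated mRNA was sequenced. Per the labels and the study's methods, the authors checked reads with FastQC, trimmed them with cutadapt and fastp, mapped them to GRCm39 with STAR and deposited raw read counts per Ensembl gene. The counting tool, its strand setting and its treatment of multi-mapped reads are not given in the sources used here, so overlapping, antisense and near-identical genes can share reads. A table of splice junction reads was not used here.

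Counts of AKR/J d17 and d12 libraries were compared with edgeR 4.0.16 in R 4.3.3 (filterByExpr, TMM scaling, quasi-likelihood F test, Benjamini-Hochberg adjusted p under 0.05). A change of over 2-fold was tested with glmTreat. Differences in net change between strains were interaction terms over 12 libraries, and d15 was tested against the mean of d12 and d17 over 9. Standard errors were obtained by dividing the absolute log2 fold change by the root of the F statistic. Depth was 26363697 to 39759702 reads on genes over the 27 libraries, and no pair of libraries held identical counts. Where a day had no read, a floor of 3 reads per library was used, and with 1 to 3 reads a ratio with its 95% counting interval, which covers counting error only.

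Named were the 10 largest rises and falls that averaged 3 or more in log2 CPM and whose days did not overlap, 3 called members per gene list with the largest changes that averaged 0 or more, defining members, 5 genes per interaction (or all called) and 3 per direction on d15. Gene lists and members were chosen with earlier results of these data known and are described by counts and medians only. Gene positions came from GENCODE on GRCm39. Alternatives were other scalings and filters, DESeq2 1.42.0, the likelihood ratio test, wider models, a replicate block, thinned counts and leaving out single libraries. Chosen after seeing the data were the removal of the trend with transcript length and GC content and the use of d12 replicate 2 alone. Some named genes are not reported here. The scripts were tested on simulated data.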

Additional observations from a re-analysis of the deposited data

Results flagged for a closer look

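The following results were selected because the net change of AKR/J differed from that of another strain by a test of the difference itself. Against C57BL/6J, 2 genes were called by edgeR, Nr1h5 with a difference of -7.95 on the log2 scale (edgeR adjusted p = 0.01) and Rpl34-ps1 with -7.72 (edgeR adjusted p = 0.00799). Over the fits that left out 1 library each, the edgeR adjusted p ranged from 0.000564 to 0.0414 for Rpl34-ps1 and from 0.000971 to 0.0693 for Nr1h5. Both genes were far above the levels of the other strains in every AKR/J d12 library.

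Against Cav1-null, 2395 genes were called. The 5 of smallest adjusted p were Grm5 at 3.76, Hpcal4 at 2.78, Glra2 at 3.42, Ablim3 at 3.30 and Nr1h5 at -6.79. The first 4 were lower in every AKR/J d12 library than in any Cav1-null d12 library. Their differences against C57BL/6J were 3.32, 2.49, 2.82 and 3.21, each with an edgeR adjusted p of 0.0724, and thus missed the threshold.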

How the results depend on the processing

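No named gene called between d12 and d17 reversed its direction in the settings in which named genes were followed. These were the other scalings, the replicate block, the removed trend, the left-out gene lists and single libraries. Among named genes called in neither fit, a change of sign was not counted as a reversal. The list medians of microglia, endothelium, adult globins, skeletal muscle, hypoxia and cholesterol genes were negative and turned positive with library sizes alone (0.38, 0.32, 0.09, 0.38, 0.18 and 0.37), and all of these but hypoxia also did without 1 or more single libraries. The count of genes called between d12 and d17 was 6465 to 11614 under the other settings and 6362 to 12115 when single libraries were left out, and the count over 2-fold, 3513, was 2233 to 5164 when single libraries were left out. Against C57BL/6J, where 2 genes were called, the count was 41 with library sizes alone, 1717 with no filter beyond at least 1 read, 0 with at least 10 reads in every library (3766 at an unadjusted p under 0.05), 4453 in a model of all 27 libraries, 1933 with DESeq2, 1831 with the likelihood ratio test and 35 with the trend of length and GC content removed. Leaving out single libraries gave 1 to 3951 genes. Against Cav1-null, DESeq2 called 3603 genes, the fit with the trend removed 2116, and leaving out single libraries gave 907 to 6452. The contrast of d15 gave 2471 genes with no filter, 3434 in the model of all 27 libraries, 2963 with DESeq2, 2729 with the likelihood ratio test, 334 with the trend removed and 11 to 6527 without single libraries. The cause of these shifts was not tested.

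With the replicate number as a block, 8167 genes were called between d12 and d17, 4 against C57BL/6J, 1790 against Cav1-null and 201 in the contrast of d15. Deviations of d12 and d17 libraries with the same number had correlations of -0.15, -0.046 and 0.15, so the libraries share only a number, and 1 of the 3 d12 libraries correlated best with its own number.

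Thinning all libraries to the smallest gave 9084 genes between d12 and d17. Leaving 1 library in a group assumes that it varies like the others.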

Other observations

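Further gene families were counted, all chosen after values were seen, where 23.1% of all genes tested were higher and 22.7% lower. Of 47 clustered protocadherin genes, which give neurons their surface identity, 32 were higher and 1 lower on d17 (median 1.47). Of 18 genes of the contactin and Lsamp families of axonal adhesion molecules, 15 were higher and none lower (median 3.18), and of 20 semaphorin genes, 9 were higher and 1 lower. Of 32 replication histone genes, 30 were lower and none higher (median -2.95). Their mRNAs are mostly not polyadenylated, and the genes are near copies of each other. Of 79 mitochondrial ribosomal protein genes, 55 were lower and 1 higher (median -0.96), of 47 Nduf genes of complex I, 26 and 1 (median -1.10), and of 27 Sm and Lsm genes of the spliceosome, 18 and 2 (median -1.40). Of 380 Zfp genes, 80 were higher and 73 lower (median 0.02), and of the 9 chaperonin CCT genes tested with edgeR none was called.

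Of genes with at least 1 CPM in every library of a day and at most 0.1 CPM in every library of the other, 19 were present on d17 and 22 on d12. The first included Tmem72, Nxph2, Npy2r and the dopamine transporter gene Slc6a3, and the second Gzmc, Prl2c5, Prl7a1, Aqp8 and Gfi1b.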
